A study of Mus musculus with 12 samples.

Results

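The comparison sets B16.F10 cells depleted of Prmt7 RNA against control cells, with no interferon gamma (IFN-γ) given to either. B16.F10 is a melanoma line from the C57BL/6 mouse strain. The depleted cells received a small interfering RNA (siRNA) against Prmt7 (siPRMT7) and the controls one against luciferase (siLuc), which mouse cells lack. Both were collected 72 h after transfection and left without cytokine. Each group holds 3 libraries of poly(A) RNA, so the comparison uses 6 of the 12 libraries of the study. The other 6, siPRMT7 and siLuc cells given IFN-γ for the last 24 h, entered the estimate of the spread and are cited only where a difference is set beside its counterpart with the cytokine. The sources used here give neither the sequence nor the number of the siRNAs, so an effect of a single siRNA on other RNAs cannot be told apart from that of Prmt7. The labels call the libraries replicates without saying that they came from separate cultures, and the p-values measure the spread between these libraries, which may be technical.

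Prmt7 is an arginine methyltransferase that places single methyl groups on arginines, among them arginines of histones and RNA-binding proteins. The methyl donor of this reaction is S-adenosylmethionine. Interferons signal through receptors with Janus kinases to STAT transcription factors, which with Irf9 bind the interferon-stimulated response element (ISRE) in promoters of antiviral genes. Another element of such promoters is the gamma-activated site (GAS). In tumour cells the same programme includes the genes that load and present peptides on MHC class I.

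Of 55536 lines in the deposited table, 14424 had a mean of at least 4 over the 12 libraries, and 14407 genes remained after repeated symbols were joined to the line with the highest mean. Values are the authors' log2-scale rlog values (regularized log). A difference is the siPRMT7 mean minus the siLuc mean, tested with limma and adjusted by Benjamini-Hochberg over the 14407 genes. "Rose" and "fell" are used of genes with an adjusted p under 0.05. A stricter limma test asked whether the difference exceeded 2-fold. By the first test 10835 genes, or 75.2%, differed. Higher in siPRMT7 cells were 5236 (36.3%) and lower 5599 (38.9%). Past the test against 2-fold were 365 risen genes (2.53%) and 263 fallen genes (1.83%). Over the genes named below the standard error (SE) of the difference ran from 0.034 to 0.313, with a median of 0.054.

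Most of these differences were small. The median size among called genes was 0.447 on the log2 scale, and 7098 of the called genes (65.5%) differed by less than 1.5-fold. The median over all tested genes was -0.01, with quartiles of -0.339 and 0.334. In 10999 genes (76.3%) the 3 siPRMT7 libraries did not overlap the 3 siLuc libraries. Direction moved with level: genes whose mean lay between 4 and 6 had a median difference of 0.16, and those over 12 a median of -0.162. Of the 1079 genes over 12, 30.1% were higher and 56.9% lower in siPRMT7 cells. It also moved with the kind of gene. Of 429 long intergenic noncoding RNAs, 218 were higher and 69 lower, and 32 rose against 1 that fell past the 2-fold test. Of 292 processed pseudogenes, 37 were higher and 132 lower. The part of level in these shares was not tested.

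**Figure D1:**
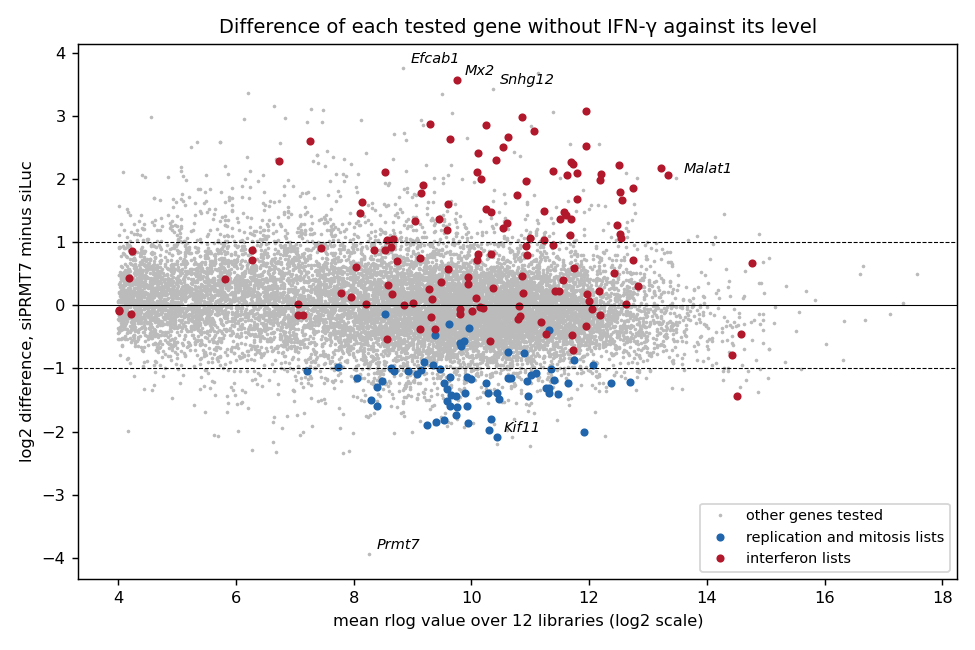
Log2 difference of each of the 14407 tested genes (siPRMT7 minus siLuc, without IFN-γ, vertical axis) against its mean rlog value over the 12 libraries (horizontal axis); dashed lines mark 2-fold. Members of the interferon lists (red) reach 3.57 with Mx2, members of the replication and mitosis lists (blue) lie below 0, and Prmt7 is lowest at -3.95.

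The libraries held 26.03 to 30.98 M reads in siPRMT7 cells and 24.16 to 25.52 M in siLuc cells. Of the linear values summed over genes, mitochondrial transcripts took 2.69 ± 0.15% in siPRMT7 cells and 1.84 ± 0.35% in siLuc cells (SD, n = 3 each). Ribosomal RNA genes, which poly(A) selection should remove, made up 0.272 ± 0.052% in siPRMT7 cells and 0.585 ± 0.205% in siLuc cells (SD, n = 3 each). Of the 20 genes that IFN-γ induced most in siLuc cells, siPRMT7 replicate 3 had its group's top value at 19. Its median excess over the lowest library of the group was 0.241% of the treated level. In the siLuc group replicate 3 was highest at 12 of the 20, with a median excess of 0.0216%. Medians of the interferon lists are therefore also given without siPRMT7 replicate 3. Of 12 leukocyte markers 2 passed the filter on the mean, and Cd3e, Adgre1, Itgax and Ncr1 were at 0 in every library. Summed linear values of the leukocyte list ran from 453.2 to 532.4 in siPRMT7 libraries and from 413.2 to 426.8 in siLuc libraries. Those of the 8 fibroblast markers, of which 3 were tested, ran from 316.0 to 328.7 in siPRMT7 and from 445.3 to 456.2 in siLuc libraries. The 6 endothelial markers, of which 1 was tested (Vwf), summed to 116.9 to 138.0 in siPRMT7 and 36.6 to 44.6 in siLuc libraries. Cdh5 and Kdr among them lay at -2.22 to -2.2 in every library, and -2.22 was the lowest value of the data. No keratinocyte marker of 6 was tested, and Krt1 and Krt10 were at 0. The part of these lists in the results was not tested.

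Prmt7 (ENSMUSG00000060098.11), on the plus strand of mm10 chromosome 8 from 106210936 to 106252794, stood at 6.16, 6.32 and 6.41 in the siPRMT7 libraries, against 10.16, 10.34 and 10.24 in the siLuc libraries. It was the gene with the largest fall among named genes, 15.4-fold on the rlog scale (-3.95, SE 0.08). Its relatives differed far less. Of 9 other arginine methyltransferases and partners tested, 6 fell, 1 rose and 2 were not called. Prmt1, which makes most asymmetric dimethylarginine, had 11.80, 11.81 and 11.79 in siPRMT7 cells, against 12.72, 12.77 and 12.65 in siLuc cells (-0.91, SE 0.04). Prmt5, the main symmetric dimethylating enzyme, fell by 0.55 and its partner Wdr77 by 0.50. Prmt3, which methylates a ribosomal protein, fell by 0.54, and Ndufaf7, which methylates a complex I subunit, by 0.60. Prmt6 alone of the list rose, with 8.81, 8.95 and 9.05 in siPRMT7 cells and 8.39, 8.40 and 8.07 in siLuc cells (0.65, SE 0.10). Exons of Wdr77 and Prmt6 overlap other genes over 28.7% and 23.4% of their bases, so their values may hold reads of neighbours.

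**Figure D2:**
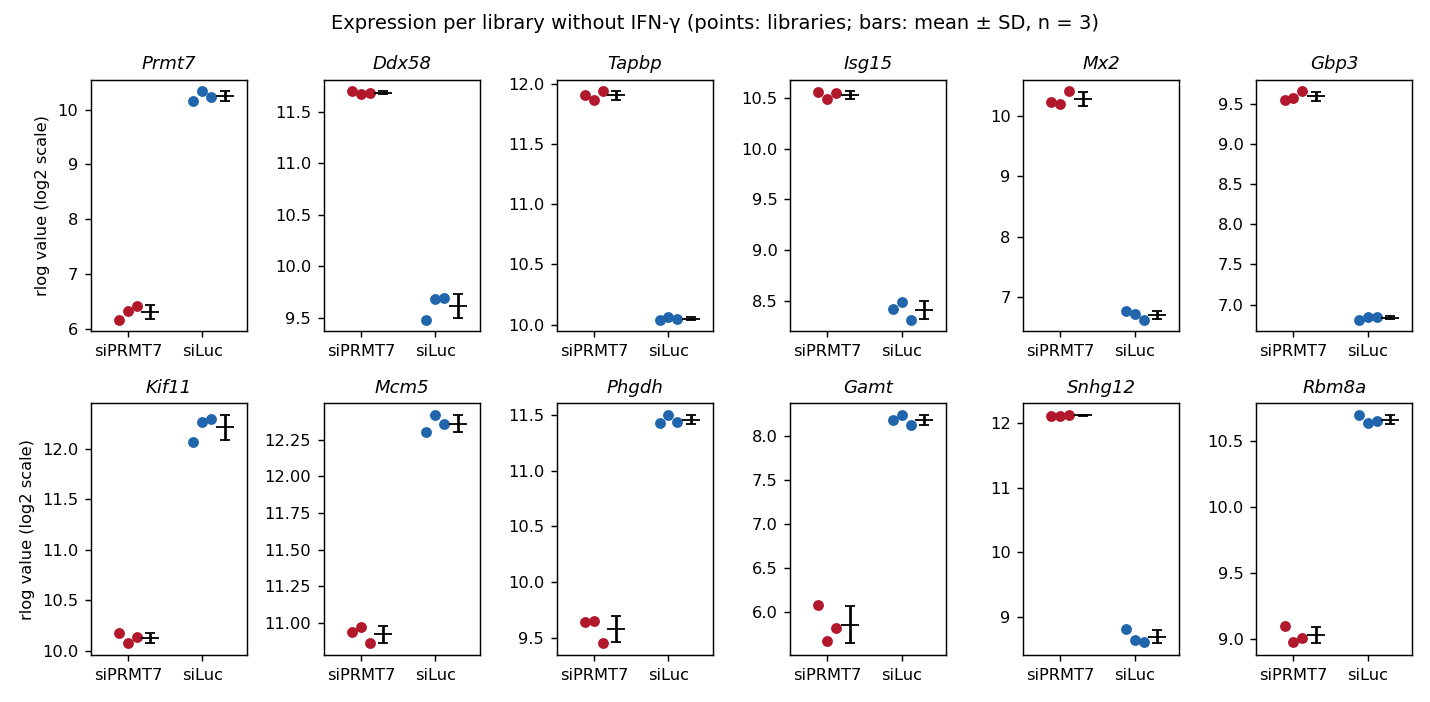
Rlog values (log2 scale, vertical axes) of 12 genes in the 3 siPRMT7 libraries (red, left) and the 3 siLuc libraries (blue, right) without IFN-γ; bars are mean ± SD, and each panel has its own axis that does not start at 0. In every panel the groups stand apart, with Tapbp at 11.87 to 11.94 in siPRMT7 and 10.04 to 10.06 in siLuc libraries, and Kif11 at 10.07 to 10.17 and 12.07 to 12.30.

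Interferon-stimulated genes rose in siPRMT7 cells that had received no interferon. Promoters of the called members of the interferon lists with the largest rises and an ISRE are printed below, since of the motifs searched its share differed most between risen genes and all promoters. They are RefSeq promoters of GRCm38.p6, from 250 bases before to 50 bases after a start site, 5′ to 3′ on the gene's strand. Capitals mark matches to GAAANNGAAA on either strand, and a match on the other strand reads as its reverse complement.
Irgm2: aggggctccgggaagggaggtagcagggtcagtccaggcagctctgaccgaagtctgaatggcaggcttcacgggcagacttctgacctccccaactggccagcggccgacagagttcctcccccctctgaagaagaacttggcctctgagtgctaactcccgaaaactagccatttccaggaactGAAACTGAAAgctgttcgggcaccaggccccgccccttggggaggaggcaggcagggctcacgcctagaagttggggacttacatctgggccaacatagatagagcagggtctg
Ddx60: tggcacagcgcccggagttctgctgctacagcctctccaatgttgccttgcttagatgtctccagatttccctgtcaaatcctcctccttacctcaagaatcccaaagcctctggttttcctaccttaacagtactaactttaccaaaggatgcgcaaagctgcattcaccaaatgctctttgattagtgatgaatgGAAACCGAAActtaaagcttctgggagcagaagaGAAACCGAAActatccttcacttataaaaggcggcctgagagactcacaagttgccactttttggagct
Ifit3: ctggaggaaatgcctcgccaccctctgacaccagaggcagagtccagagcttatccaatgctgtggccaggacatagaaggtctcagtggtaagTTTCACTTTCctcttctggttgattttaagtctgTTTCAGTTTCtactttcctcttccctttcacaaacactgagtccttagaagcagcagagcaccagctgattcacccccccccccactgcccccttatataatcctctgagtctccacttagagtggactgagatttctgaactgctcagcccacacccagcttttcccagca
Ifit3b: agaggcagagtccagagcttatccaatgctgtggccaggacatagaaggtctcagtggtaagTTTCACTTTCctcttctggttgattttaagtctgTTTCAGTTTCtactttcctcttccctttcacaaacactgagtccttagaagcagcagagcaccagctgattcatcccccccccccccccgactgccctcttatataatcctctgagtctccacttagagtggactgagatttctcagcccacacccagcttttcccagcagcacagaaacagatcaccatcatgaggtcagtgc

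The Irgm2 window is chr11:58214727-58215026 (plus strand), with its match 64 bases before the start site. This RefSeq start lies 15359 bases from the gene start of the deposited table, so it may be the start of another transcript of the gene. Ddx60 (chr8:61927837-61928136, plus strand) has matches 53 and 19 bases before its start. Ifit3 (chr19:34583279-34583578) and Ifit3b (chr19:34607707-34608006), a pair of neighbouring copies on the plus strand, share both match sequences. In Ifit3 the matches begin 156 and 122 bases before the start, and in Ifit3b 188 and 154 bases before it. A match describes letters and is not evidence of binding.

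Promoter sequence was at hand for 249 of the 365 genes past the 2-fold test upward, 204 of the 263 past it downward and 10021 of all 14407 genes tested. Fewer than 80% of each set had a promoter, so a check over whole sets is void, and the shares describe only the promoters read. The ISRE stood in 38 of 249 risen genes (15.3%), in 7 of 204 fallen genes (3.43%) and in 319 of all 10021 (3.18%). Among risen genes of the interferon lists it stood in 19 of 36 (52.8%), and among the other members of those lists in 19 of 68 (27.9%). Outside the interferon lists 19 of 213 risen genes held it (8.92%), among them Trim12c, Trim30a, Trim12a, Trim30d and Trim34a. In siLuc cells these TRIM genes were higher with IFN-γ than without it, as Trim12c with means of 12.3 and 7.63. The ISRE share followed the size of the difference, at 24.2% of 66 genes that were higher by 2 or more on the log2 scale, 7.88% at 1 to 2 and 3.13% at 0.5 to 1. The GAS (TTCNNNGAA) stood in 16 of 249 risen genes (6.43%), close to the 6.84% of all promoters. In the interferon lists it stood in 6 of the 36 risen members (16.7%) and in 13 of the 68 others (19.1%), so its share was not higher in the risen ones. Both strands were searched, and matches of different motifs may overlap.

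**Figure D3:**
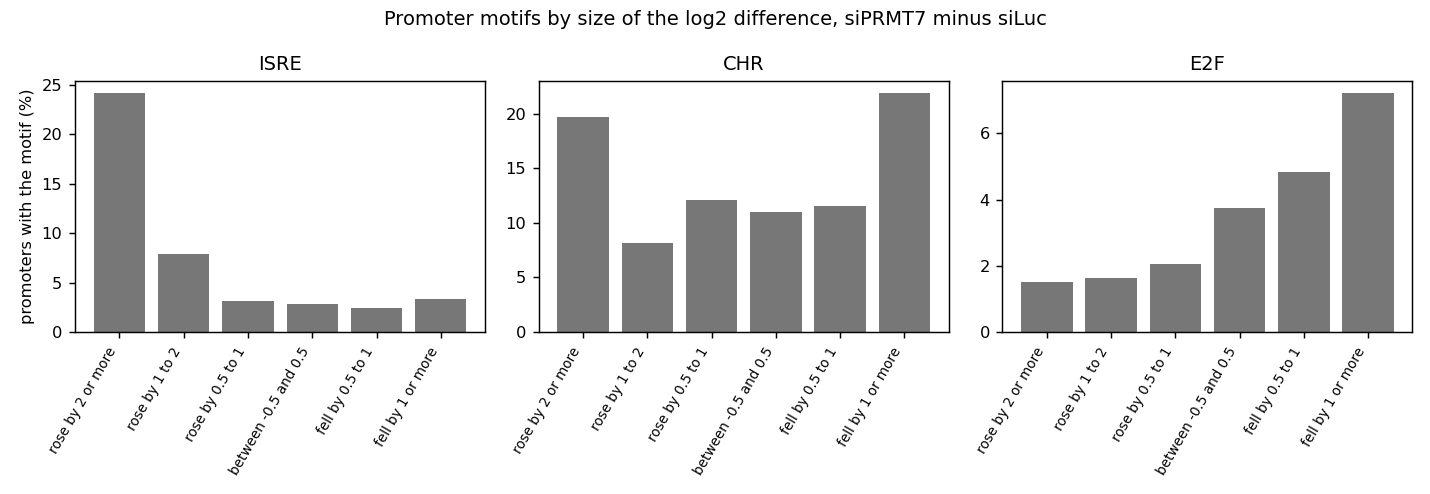
Share of promoters (%, vertical axes, each from 0) that hold an ISRE, a CHR (cell cycle genes homology region) or an E2F element, by size of the log2 difference (siPRMT7 minus siLuc, without IFN-γ, horizontal axes). The ISRE share is 24.2% in the class that was higher by 2 or more and 2.46% to 3.35% in the 2 classes that were lower, and the CHR share is 21.9% in the class lower by 1 or more and 19.7% in the smallest class, the 66 genes higher by 2 or more.

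Sensors of viral nucleic acid rose. Of 15 sensors and adaptors tested, 13 rose, 0 fell and 5 passed the 2-fold test, with a median difference of 0.81. Ddx58, which encodes the RNA sensor RIG-I, had 11.70, 11.67 and 11.68 in siPRMT7 cells, against 9.48, 9.68 and 9.69 in siLuc cells (4.19-fold, 2.07, SE 0.05). Ifih1 (MDA5, a sensor of long double-stranded RNA) rose by 1.74, and Dhx58, their regulator, by 1.36. The kinase gene Eif2ak2 (PKR) rose by 1.44 and the RNA-editing enzyme Adar by 1.11. Mavs, the adaptor of both RNA sensors, rose by 0.12, a call lost when any library but siLuc replicate 2 was left out (0.08 to 0.13). For DNA, Cgas rose by 0.17, a call lost without siPRMT7 replicate 1 or 3 or siLuc replicate 1 (0.12 to 0.17). Tmem173 (STING) was not called, at -0.01, and turned to 0.075 and 0.029 after quantile normalization and median centring. Ifi203, of the family of DNA-binding interferon-inducible proteins, rose by 1.78. Without siPRMT7 replicate 3 the median was 0.81 and 11 of 15 were called.

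Transcription factors that carry the interferon signal moved unequally. Of 15 IRF and STAT genes 9 rose and 2 fell, and 5 passed the 2-fold test upward, while the median was 0.23. Stat2 and Irf9, whose proteins join in an ISRE-binding complex, rose by 1.5 and 1.23. Irf7, an amplifier of type I interferon, had 6.96, 6.72 and 6.97 in siPRMT7 cells and 5.41, 5.39 and 5.44 in siLuc cells. Irf1, the factor most directly induced through GAS elements, differed least of these, with 9.08, 8.96 and 9.11 in siPRMT7 cells and 8.80, 8.75 and 8.91 in siLuc cells (0.23, SE 0.04). Stat5a fell by 0.37 and Irf5 by 0.19. Without siPRMT7 replicate 3 the median was 0.20.

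Antiviral effectors rose. Of the 10 IFIT, IFITM and MX genes tested 8 rose, 1 fell and 5 passed the 2-fold test, with a median of 1.35. Mx2, a dynamin-like GTPase gene annotated as a polymorphic pseudogene in mice, had 10.23, 10.20 and 10.41 in siPRMT7 cells and 6.77, 6.72 and 6.63 in siLuc cells. Mx1 rose by 2.42. Ifit3, whose protein binds foreign RNA with its family, had 10.85, 10.66 and 10.89 in siPRMT7 cells, against 8.13, 8.36 and 8.36 in siLuc cells (5.73-fold). Ifit1 rose by 1.98. Among the IFITM genes, which block entry of viruses, Ifitm3 rose by 0.72 and Ifitm2 fell by 0.27, with 40.9% of its exon bases in a predicted gene. Copies of these families share reads, and the sources used here do not say how such reads were counted.

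In the list of the oligoadenylate synthetase (OAS) system, which responds to double-stranded RNA, 8 of 9 members rose with 0 falls (median 1.03). Oas2 had 8.91, 8.65 and 8.75 in siPRMT7 cells and 6.08, 6.31 and 6.01 in siLuc cells (2.64, SE 0.07). Oasl2 rose by 2.31, Oas1b by 2.12 and Oas1a by 0.82. For the ISG15 system, a ubiquitin-like conjugation pathway, 6 of 8 genes rose and 2 fell (median 0.70). Isg15 itself had 10.56, 10.49 and 10.55 in siPRMT7 cells, against 8.42, 8.49 and 8.31 in siLuc cells (4.36-fold). The removing enzyme Usp18, also a brake on the interferon receptor, rose 7.94-fold (2.99, SE 0.07). The conjugating enzyme gene Ube2l6 rose by 1.07 and the activating enzyme gene Uba7 by 0.34. Herc4, of the ubiquitin ligase family, fell by 0.56. Without siPRMT7 replicate 3 the median was 0.73.

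Of 17 guanylate-binding proteins and immunity-related GTPases, which attack vacuoles of intracellular microbes, 10 rose, 0 fell and 8 passed the 2-fold test (median 0.95). Irgm2 had 10.72, 10.67 and 10.75 in siPRMT7 cells and 7.43, 7.61 and 7.84 in siLuc cells (3.09, SE 0.06). Gbp3 had 9.55, 9.58 and 9.66 in siPRMT7 cells and 6.81, 6.85 and 6.85 in siLuc cells. Igtp rose by 2.27, Irgm1 by 2.18, Gbp2 by 2.08 and Gbp6 by 2.11. Gbp6 shares 29.0% of its exon bases with a predicted gene. This list depended most on single libraries, with a median of 0.86 to 1.22 when each was left out and 0.86 without siPRMT7 replicate 3.

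Of 14 PARP genes 10 rose, 3 fell and 7 passed the 2-fold test (median 1.01). Parp14, a mono-ADP-ribosyltransferase, had 10.30, 10.23 and 10.22 in siPRMT7 cells and 7.92, 8.02 and 8.10 in siLuc cells (2.23, SE 0.04). Parp10 rose by 1.69, Parp9 by 1.38, its partner Dtx3l by 1.47, Parp11 by 1.37 and Parp12 by 1.28. The DNA repair enzymes Parp1 and Parp2 fell by 0.71 and 0.38, and Parp16, of the endoplasmic reticulum, fell by 0.53.

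In the list of Schlafen, SAMD9 and other antiviral genes 18 of 21 rose, 0 fell and 9 passed the 2-fold test (median 1.07). Ddx60, a helicase, rose by 2.87, as did Xaf1, an antagonist of the apoptosis inhibitor XIAP. Rtp4 rose by 2.67 and Samd9l, a growth-restricting gene, by 2.22. Rsad2, which makes viperin, a radical enzyme that produces a chain-terminating nucleotide, had 11.89, 11.73 and 11.85 in siPRMT7 cells, against 9.94, 10.06 and 10.10 in siLuc cells. Slfn2 rose by 2.61 and Slfn9 by 0.23, while Slfn5 was not called at -0.08. Bst2 (tetherin) rose by 0.51 and Zbp1, a sensor of Z-form nucleic acid, by 0.57. Without siPRMT7 replicate 3 the medians of the IFIT, OAS, PARP and Schlafen lists were 1.33, 1.02, 1.0 and 1.05.

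MHC class I genes rose with the antiviral ones, and the chaperones that fold class I chains fell. Of 16 genes 12 rose and 3 fell (median 0.93, and 0.92 without siPRMT7 replicate 3). H2-K1, a classical class I heavy chain, had 10.60, 10.50 and 10.55 in siPRMT7 cells and 8.56, 8.29 and 8.52 in siLuc cells (4.27-fold, 2.09, SE 0.05). H2-D1, the other classical chain of this strain, rose by 1.68, H2-T23 by 1.6 and the shared light chain B2m by 0.67. Nlrc5, the transactivator of class I genes, rose by 1.53. Of the loading machinery, the bridging protein Tapbp had 11.91, 11.87 and 11.94 in siPRMT7 cells and 10.04, 10.06 and 10.05 in siLuc cells, and the peptide pump gene Tap1 rose by 1.04. Calr fell by 1.44, Pdia3 by 0.78 and Canx by 0.46, all of them general chaperones of the endoplasmic reticulum.

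Genes of the proteasome that supplies the peptides moved little. The list holds 10 genes of the immunoproteasome, its activator, the constitutive catalytic subunits and an assembly factor. Of these 3 rose, 6 fell and none passed the 2-fold test in either direction (median -0.16). The constitutive subunits and the assembly factor are among the 6 falls. Psmb8 had 5.82, 5.75 and 6.00 in siPRMT7 cells and 5.27, 5.13 and 5.05 in siLuc cells (0.70, SE 0.07), with 14.7% of its exon bases shared with another gene. Psmb9 rose by 0.33, a call lost after quantile normalization (0.12), and the activator subunit Psme2 by 0.40. Psmb10, the third catalytic subunit of the induced form, fell by 0.16, a call lost without siPRMT7 replicate 1 (-0.10). Its constitutive counterparts Psmb5, Psmb6 and Psmb7 fell by 0.21, 0.45 and 0.47, and the assembly factor Pomp by 0.32. The median was -0.16 without siPRMT7 replicate 3 as well.

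In the NF-κB list, a pathway of inflammation, 13 of 17 genes rose and 3 fell, with a median of 0.38 and 2 genes past the 2-fold test. Ccl2, a monocyte chemokine, had 7.78, 7.80 and 7.78 in siPRMT7 cells and 5.93, 5.96 and 5.84 in siLuc cells (1.88, SE 0.08). The neutrophil chemokine Cxcl1 rose by 1.34. Nfkbiz rose by 0.96, Relb by 0.92 and Nfkb2 by 0.72, these last being subunits of the noncanonical branch. The canonical subunit Rela rose by 0.38, whereas Nfkb1 fell by 0.48. With IFN-γ the median of the list was 0.97, and Cxcl1 rose by 3.20 against 1.34 without it.

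Of the 25 largest rises among genes with a mean of at least 6, 5 are TRIM genes that stand side by side. A run of 8 neighbouring tested genes on mm10 chromosome 7, from 104244459 to 104507849, rose at least 2-fold in size at every position. Trim12c (ENSMUSG00000057143.15) had 11.28, 11.26 and 11.42 in siPRMT7 cells, against 7.46, 7.68 and 7.76 in siLuc cells (12.9-fold, 3.68, SE 0.06). Trim30a, a regulator of Toll-like receptor signalling, rose by 3.07, Trim12a by 3.05, Trim30d by 2.94, Trim34a by 2.86 and Trim5 by 1.42. The mouse genes of this cluster are relatives of the retroviral restriction factor TRIM5 of primates, and reads of such copies may be shared. Of Trim34a's exon bases 23.5% overlap a predicted gene that is itself in the run. Single matches to the ISRE stood in the promoters of Trim12c, Trim30a, Trim12a, Trim30d and Trim34a.

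The rise without cytokine was large relative to the same difference with it. The difference of the differences (without minus with IFN-γ) was tested as an interaction and called for 4415 of 14407 genes (30.6%). It was called for 7 of 10 IFIT, IFITM and MX genes, 8 of 9 genes of the OAS list, 12 of 17 GTPases, 10 of 14 PARP genes and 19 of 21 genes of the Schlafen list. With IFN-γ in both arms the medians of these lists were 0.16, 0.17, -0.02, 0.05 and 0.26. The counts of called interactions take both signs. A called interaction was negative for Parp16 (-0.33), for Slfn5 (-0.53), for a member of the IFIT list (-0.18) and for a member of the GTPase list (-1.35). Usp18 had the largest interaction of the interferon genes printed here, 3.14 (SE 0.09), from a rise of 2.99 without and a difference of -0.15 with IFN-γ. Gbp2 had a rise of 2.08 without IFN-γ and a fall of 0.87 with it. Slfn2 rose in both settings, by 2.61 without and 2.03 with IFN-γ (interaction 0.58, SE 0.14).

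The levels reached without cytokine lay well under those that IFN-γ gave control cells for many of these genes. Gbp3 averaged 9.60 in siPRMT7 cells without IFN-γ and 13.93 in siLuc cells with it, a difference of -4.33 (limma adjusted p = 2.28e-26). Irf1 differed by -5.18 in the same comparison, Gbp2 by -7.29 and Nlrc5 by -5.69. Ddx58 and Irf9 came nearer, at -0.74 and -0.75. Mx2 averaged 10.28 in siPRMT7 cells without IFN-γ and 10.29 in siLuc cells with it (-0.01, limma adjusted p = 0.923), and Slfn2 differed by -0.06 (limma adjusted p = 0.579). The siPRMT7 libraries without IFN-γ enter both this comparison and the main one.

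**Figure D4:**
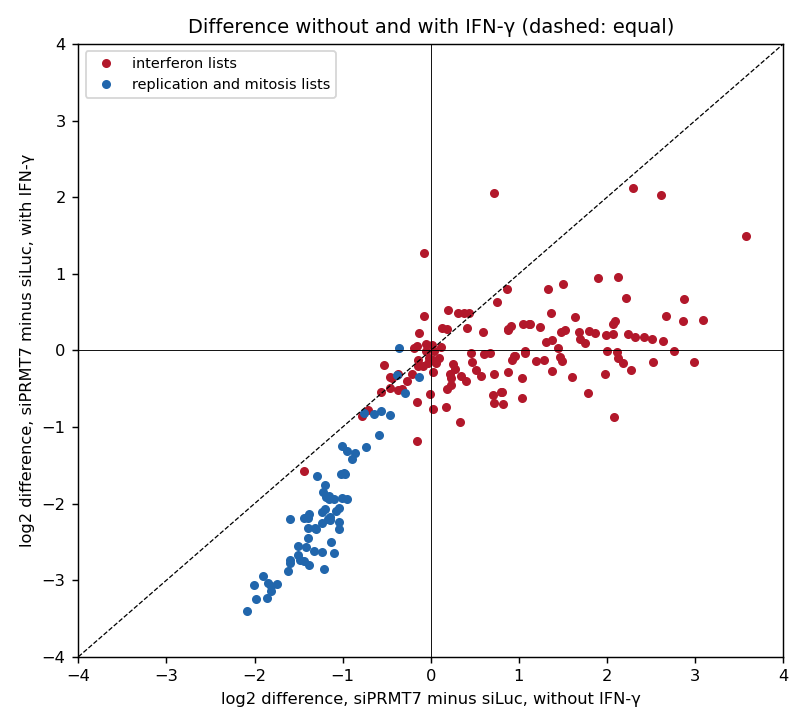
Log2 difference siPRMT7 minus siLuc without IFN-γ (horizontal axis) and with IFN-γ (vertical axis) for members of the interferon lists (red) and of the replication and mitosis lists (blue); the dashed line marks equal differences. Most interferon genes that were higher without IFN-γ lie near 0 on the vertical axis, as Usp18 at 2.99 and -0.15, and most cell division genes lie under the dashed line, as Kif11 at -2.09 and -3.40.

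Cell division genes fell together. All 34 genes of the mitotic spindle and kinetochore list fell, and 29 passed the 2-fold test (median -1.42, range -2.09 to -1.01). In bulk RNA fewer dividing cells and less of these RNAs per cell cannot be told apart. Promoters of the called members of the cell cycle lists with the largest falls and a CHR are printed below, since this element marks genes of the late cell cycle. Source and window are as above, and capitals mark TTTGAA or its reverse complement.
Kif11: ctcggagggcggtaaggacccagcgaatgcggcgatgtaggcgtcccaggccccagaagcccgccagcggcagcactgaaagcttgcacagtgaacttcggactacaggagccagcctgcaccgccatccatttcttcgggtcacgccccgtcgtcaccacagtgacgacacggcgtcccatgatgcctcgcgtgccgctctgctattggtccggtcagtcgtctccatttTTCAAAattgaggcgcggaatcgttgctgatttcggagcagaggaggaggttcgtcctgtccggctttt
Top2a: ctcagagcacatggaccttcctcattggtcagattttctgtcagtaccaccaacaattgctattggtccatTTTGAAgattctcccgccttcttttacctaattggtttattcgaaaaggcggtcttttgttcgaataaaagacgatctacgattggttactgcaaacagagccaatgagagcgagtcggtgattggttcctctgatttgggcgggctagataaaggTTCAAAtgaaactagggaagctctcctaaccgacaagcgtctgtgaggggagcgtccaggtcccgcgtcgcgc
Cenpa: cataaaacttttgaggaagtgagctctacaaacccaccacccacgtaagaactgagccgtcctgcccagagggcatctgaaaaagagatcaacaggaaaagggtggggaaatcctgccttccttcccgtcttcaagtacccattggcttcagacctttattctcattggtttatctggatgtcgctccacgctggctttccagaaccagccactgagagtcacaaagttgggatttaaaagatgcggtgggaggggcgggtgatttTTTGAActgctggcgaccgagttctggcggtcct
Kif4: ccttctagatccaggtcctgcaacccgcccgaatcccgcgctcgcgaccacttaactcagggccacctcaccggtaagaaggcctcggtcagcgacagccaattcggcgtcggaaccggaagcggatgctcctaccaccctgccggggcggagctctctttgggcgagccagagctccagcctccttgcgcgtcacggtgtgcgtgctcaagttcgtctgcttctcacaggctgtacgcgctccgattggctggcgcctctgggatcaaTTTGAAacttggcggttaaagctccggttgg

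The windows are chr19:37376132-37376431 (plus strand) for Kif11, chr11:99024140-99024439 (minus strand) for Top2a, chr5:30666636-30666935 (plus strand) for Cenpa and chrX:100625815-100626114 (plus strand) for Kif4. The match lies 19 bases before the start site in Kif11 and 179 and 23 bases before it in Top2a. In Cenpa and Kif4 the match begins at position 16 and position 19 after the start. The CHR stood in 20 of 28 promoters of the mitotic list (71.4%), in 58 of 204 genes past the 2-fold test downward (28.4%), in 31 of 249 past it upward (12.4%) and in 1160 of all 10021 (11.6%). In the list of replication genes 4 of 26 held it (15.4%). The E2F element (TTTGGCGC, TTTCCCGC or TTTGCCGC) showed the opposite division, with 11 of 26 replication genes (42.3%), 2 of 28 mitotic genes (7.14%) and 374 of all promoters (3.73%). CCAAT, read by NF-Y, stood in 20 of 28 mitotic genes (71.4%), 17 of 26 replication genes (65.4%) and 38.5% of all.

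Among motors and kinetochore proteins, Kif11, which slides spindle poles apart, had 10.17, 10.07 and 10.13 in siPRMT7 cells and 12.07, 12.27 and 12.30 in siLuc cells (4.26-fold lower, SE 0.06). Cenpe, a kinetochore motor, fell by 1.98. Cenpa, the centromeric histone variant, had 9.09, 8.99 and 8.95 in siPRMT7 cells and 10.93, 10.98 and 10.83 in siLuc cells. Of the kinases, Plk1 had 10.03, 10.06 and 10.01 in siPRMT7 cells and 11.83, 11.91 and 11.78 in siLuc cells (-1.81, SE 0.05). Aurkb fell by 1.59, Bub1, a checkpoint kinase, by 1.49, Aurka by 1.39, and Cdk1, the mitotic cyclin-dependent kinase, by 1.31. Its partner Ccnb1 fell by 1.85 and the chromosomal passenger Birc5 by 1.86. Top2a, which untangles chromosomes, fell by 2.0. Mki67, the gene of the Ki-67 antigen, had 13.08, 13.05 and 12.98 in siPRMT7 cells against 14.09, 14.32 and 14.32 in siLuc cells (-1.21, SE 0.05). Foxm1, the transcription factor of late cell cycle genes, fell by 1.19 with its neighbour Tex52 by 1.10. Cip2a, Cdca3, Kif14, Aspm, Ube2c and Cdkn3, all known for roles in cell division or its control, were among the 25 largest falls, at -2.20, -2.09, -2.02, -1.92, -1.92 and -1.95.

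Genes of S phase fell as well. Of 33 origin licensing and replication fork genes 32 fell, 0 rose and 9 passed the 2-fold test (median -1.01). Mcm5, a subunit of the replicative helicase, had 10.94, 10.97 and 10.86 in siPRMT7 cells and 12.30, 12.42 and 12.36 in siLuc cells (2.71-fold lower, -1.44, SE 0.04). Mcm3 fell by 1.40, Mcm2 by 1.23, the polymerase genes Pola1 and Pole by 1.39 and 1.32, the loader Cdc6 by 1.05 and the sliding clamp Pcna by 0.86. All 22 genes of nucleotide supply fell (median -0.80). Rrm2, the regulated subunit of ribonucleotide reductase, had 11.50, 11.50 and 11.47 in siPRMT7 cells and 12.66, 12.71 and 12.70 in siLuc cells. Tk1 fell by 1.17, Cad by 1.16 and Tyms by 1.08.

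With IFN-γ most falls were larger. The interaction was called for all 34 mitotic genes, each with a larger fall with IFN-γ, and for 29 of 33 replication genes, of which 28 had a larger fall and 1, Gins2, did not (-0.36 without IFN-γ, interaction -0.39). Gins2, a helicase subunit gene, is named for this exception, after its values were seen. Exons of Gins2 overlap another gene over 67.3% of their bases, so its values may hold reads of that gene. The mitotic median was -1.42 without and -2.64 with IFN-γ, and the replication median -1.01 without and -1.62 with it. Kif11 had an interaction of 1.31, from -2.09 without and -3.40 with the cytokine. Mki67 had -1.21 without and -2.85 with it.

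In the homologous recombination and Fanconi list 17 of 21 fell and 4 rose (median -0.68). Fancd2, the ubiquitin-marked Fanconi protein, fell by 1.23, Brip1 by 1.16 and Bard1 by 1.0. Brca1 rose, with 12.19, 12.23 and 12.22 in siPRMT7 cells and 11.62, 11.69 and 11.81 in siLuc cells (0.50, SE 0.06), while its partner Bard1 fell. Fancm rose by 0.33. Of 24 genes of the G1 phase and the E2F system 16 fell and 6 rose (median -0.27). Ccnd2, a G1 cyclin, had 15.69, 15.71 and 15.59 in siPRMT7 cells and 14.46, 14.59 and 14.56 in siLuc cells (1.13, SE 0.05). Ccnd1 rose by 0.44 and Ccne1 by 0.18. Cdkn1a (p21), an inhibitor of cyclin-dependent kinases, had 14.22, 14.25 and 14.23 in siPRMT7 cells against 13.18, 13.23 and 13.18 in siLuc cells (2.06-fold). Another inhibitor, Cdkn2d, fell by 1.24. E2f1 and E2f2 fell by 0.81 each, E2f8 by 0.95 and Myc by 0.49, whereas E2f5 rose by 0.79.

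**Figure D5:**
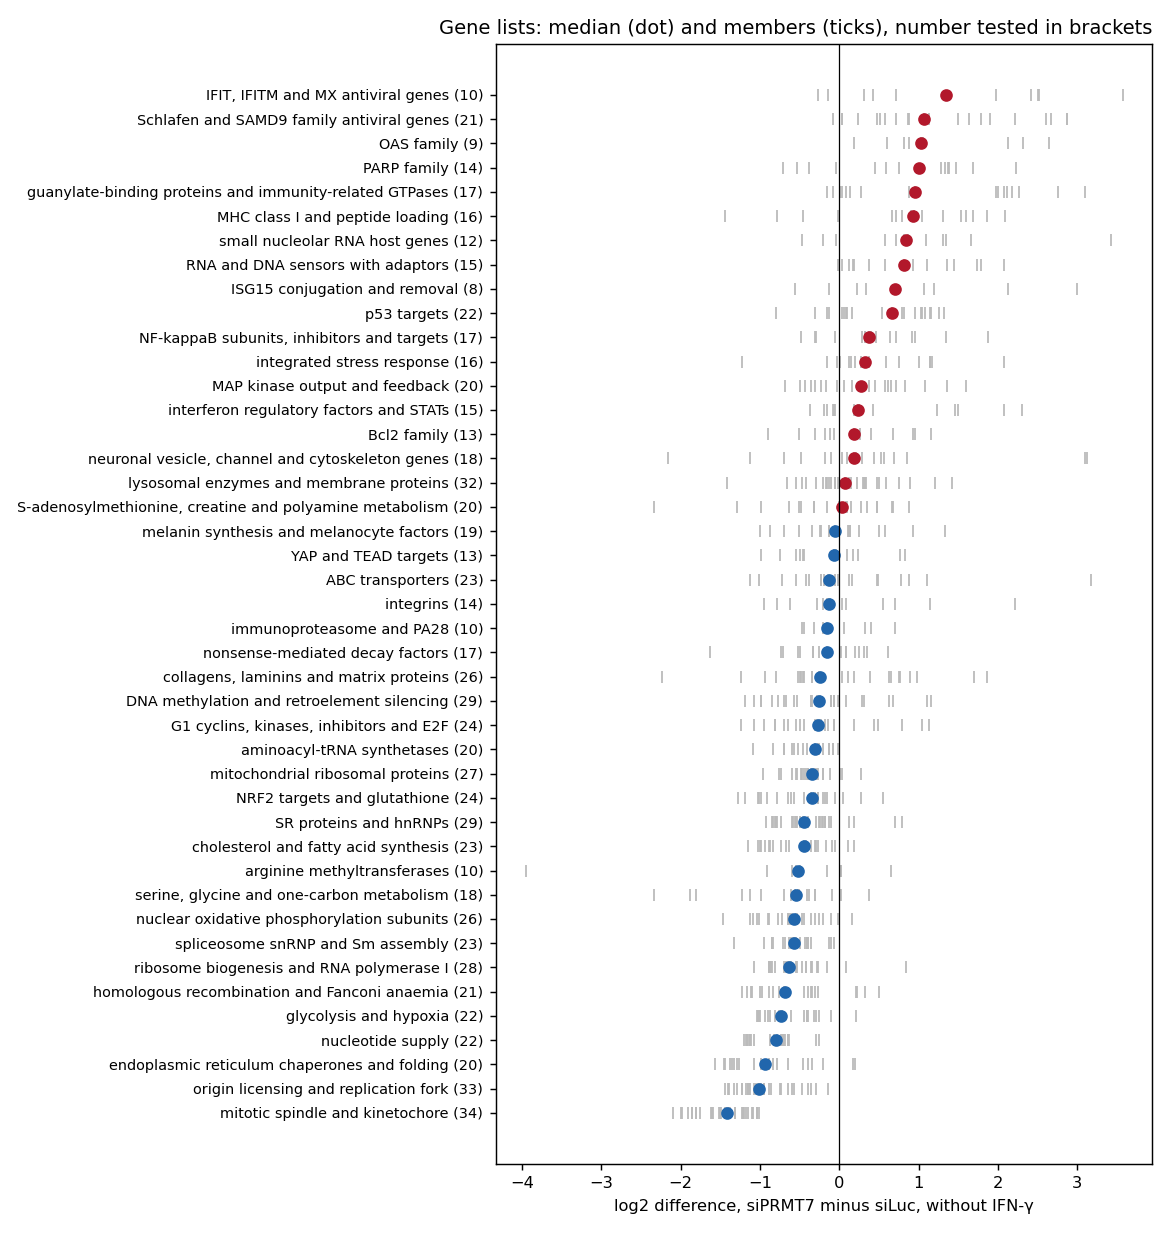
Members (grey ticks) and median (dot, red above 0 and blue below) of each of the 43 gene lists as log2 difference siPRMT7 minus siLuc without IFN-γ (horizontal axis), sorted by median with the number of members tested in brackets. The IFIT, IFITM and MX list is highest at 1.35 and the mitotic spindle list lowest at -1.42.

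p53 targets rose more often than they fell. Of 22 tested 14 rose and 4 fell (median 0.66), and 2 passed the 2-fold test. Tnfrsf10b, a death receptor, had 9.06, 9.05 and 9.10 in siPRMT7 cells and 7.71, 7.89 and 7.66 in siLuc cells (1.32, SE 0.07). Gadd45a, a stress sensor with 19.1% of its exon bases overlapping another gene, rose by 1.3. The proapoptotic Bbc3 (Puma) rose by 1.16, Trp53inp1 by 1.08, Fas by 0.79 and Mdm2, the ligase that degrades p53, by 0.54. Bax, a pore former of mitochondria, fell by 0.31 and Perp by 0.80. In the Bcl2 family 7 of 13 rose (53.8%) and 4 fell (30.8%), against 36.3% and 38.9% of all tested genes. The BH3-only activators Bmf and Bcl2l11 rose by 0.93 and 0.68 and the survival gene Bcl2 by 0.40, while Bak1 fell by 0.51, and Bnip3 by 0.90.

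The integrated stress response rose on balance and the chaperones of the endoplasmic reticulum fell. Of 16 genes of the integrated stress response, a programme run by the transcription factor Atf4, 11 rose and 1 fell (median 0.33). Atf3, a transcription factor of acute stress, had 10.20, 10.23 and 10.27 in siPRMT7 cells and 8.16, 8.10 and 8.20 in siLuc cells (4.23-fold, 2.08, SE 0.05). Nupr1 rose by 1.17, Ddit3 (CHOP) by 1.14, Sesn2 by 1.14, Ppp1r15a by 1.0 and Atf4 by 0.38. The amino acid enzyme gene Asns was not called (-0.03). It was called higher after quantile normalization (0.096) and stood at 0.008 after median centring. Slc7a5, a transporter of large neutral amino acids, averaged 11.93 ± 0.10 in siPRMT7 cells and 13.16 ± 0.08 in siLuc cells (SD, n = 3 each). Of 20 chaperones and folding enzymes of the endoplasmic reticulum 18 fell and 2 rose, 8 of them past the 2-fold test (median -0.94). Manf, a stress-induced protein of that compartment, had 10.42, 10.41 and 10.39 in siPRMT7 cells and 12.01, 11.96 and 11.96 in siLuc cells (-1.57, SE 0.04). Hspa5 (BiP), the master chaperone, fell by 1.29, Hsp90b1 by 1.38, Calr by 1.44, Creld2 by 1.45, Pdia6 by 1.35 and Hyou1 by 1.3. Xbp1, the transcription factor of the folding response, fell by 1.07. Dnajb9 rose by 0.20 and Syvn1 by 0.17.

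One-carbon and serine metabolism, which feeds nucleotides and S-adenosylmethionine, fell in 15 of 18 genes, with 1 rise and 4 falls past the 2-fold test (median -0.54). Gcat, of threonine breakdown, had 6.88, 7.03 and 6.98 in siPRMT7 cells and 9.27, 9.30 and 9.34 in siLuc cells (5.07-fold lower, -2.34, SE 0.07). Phgdh, the entry enzyme of serine synthesis, had 9.64, 9.65 and 9.45 in siPRMT7 cells against 11.43, 11.50 and 11.44 in siLuc cells (-1.88, SE 0.06). The next steps differed less, with falls of 0.30 for Psat1 and 0.56 for Psph, whose exon bases overlap another gene over 10.4%. The folate enzyme Mthfd1 fell by 1.80, cytosolic Shmt1 by 1.22, mitochondrial Shmt2 by 1.12 and Mthfd2 by 0.61.

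The list of S-adenosylmethionine, creatine and polyamine metabolism was split, with 9 of 20 higher, 9 lower and a median of 0.04. Single enzymes moved far. The shares over all tested genes were 36.3% higher and 38.9% lower. Gamt, which makes creatine by methylation, had 6.08, 5.66 and 5.81 in siPRMT7 cells and 8.18, 8.24 and 8.13 in siLuc cells (5.03-fold lower, -2.33, SE 0.10). Srm, spermidine synthase, fell by 1.29 and Odc1, the entry enzyme of polyamines, by 0.98, while Oaz2, an antizyme that restrains Odc1, and Azin1, an inhibitor of antizymes, rose by 0.88 and 0.48. Mat2a, which makes S-adenosylmethionine, rose by 0.68, and Ahcy, which clears its product, fell by 0.51. With IFN-γ Gcat and Gamt fell by 2.35 and 2.41.

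Genes of energy metabolism fell. Of 26 nuclear genes of oxidative phosphorylation 24 fell and 1 rose (median -0.57). Ndufs1, the largest subunit of complex I, averaged 11.05 ± 0.05 in siPRMT7 cells and 12.51 ± 0.06 in siLuc cells (SD, n = 3 each; -1.46, SE 0.04). Sdha fell by 1.12, Cyc1 by 1.09 and Atp5a1 by 1.04, while mitochondrial transcripts made up the larger share of siPRMT7 libraries given above. Of 27 mitochondrial ribosomal proteins 24 fell (median -0.34). In glycolysis 19 of 22 fell and 0 rose (median -0.73), with Gapdh at -1.04, Hk2 at -1.02, Pgk1 at -1.02 and Ldha at -0.75. That median ran from -0.82 to -0.51 when single libraries were left out. Of 23 genes of cholesterol and fatty acid synthesis 19 fell and 1 rose (median -0.45), led by Fasn, fatty acid synthase, at -1.15. NRF2 targets and glutathione genes fell in 20 of 24 (median -0.34), with Gsr, glutathione reductase, at -1.28, Gclm at -0.99 and ferritin heavy chain Fth1 at -1.02. Srxn1 rose by 0.55. Among all tested genes with a mean of 10 to 12, 49.2% were lower, and among those over 12, 56.9%.

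Genes that build ribosomes and process RNA fell as well. Of 28 genes of ribosome biogenesis and RNA polymerase I 26 fell and 1 rose (median -0.63). Nhp2, of the pseudouridylation complex, fell by 1.07, the nucleolar proteins Nop58 and Nolc1 by 0.88 each, and fibrillarin (Fbl), whose protein carries methylated arginines, by 0.88. Taf1d rose by 0.84. Of 20 aminoacyl-tRNA synthetases 17 fell and 0 rose (median -0.31), with Vars at -1.09. Among 23 Sm, snRNP and assembly genes 20 fell and 0 rose (median -0.57). Sm proteins carry methylarginine and join a ring on spliceosomal RNAs. Snrpb, an Sm gene, had 11.38, 11.35 and 11.28 in siPRMT7 cells and 12.70, 12.69 and 12.59 in siLuc cells (-1.32, SE 0.04), and the assembly genes Smn1 and Clns1a fell by 0.57 and 0.40. Of 29 SR proteins and hnRNPs 25 fell and 4 rose (median -0.44). Hnrnpa3 fell by 0.92, Tra2b by 0.85 and the splicing repressor Ptbp1 by 0.81, while its relative Ptbp2 rose by 0.79 and Hnrnpdl by 0.70.

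Host genes of small nucleolar RNAs went the other way. Their spliced transcripts are mostly noncoding and are cleared by nonsense-mediated decay. Of 12 tested 9 rose, 1 fell and 4 passed the 2-fold test (median 0.84). Snhg12 had 12.12, 12.12 and 12.13 in siPRMT7 cells and 8.81, 8.65 and 8.62 in siLuc cells (10.8-fold, 3.43, SE 0.06). Snhg6 rose by 1.66, Gas5 by 1.35, Snhg15 by 1.31, Snhg5 by 1.09 and Snhg1 by 0.72. Snhg3 fell by 0.47, but 71.5% of its exon bases overlap another gene. Decay factors themselves were mixed, with 5 of 17 higher (29.4%) and 9 lower (52.9%, median -0.16). Among all tested genes 36.3% were higher and 38.9% lower. Rbm8a, a core protein of the exon junction complex that triggers decay, had 9.10, 8.98 and 9.01 in siPRMT7 cells and 10.70, 10.64 and 10.65 in siLuc cells (-1.63, SE 0.05). Its partners Magoh and Eif4a3 fell by 0.71 and 0.52. The helicase gene Dhx34 rose by 0.61. Malat1, a nuclear noncoding RNA, was the noisiest gene named, with 14.48, 13.72 and 14.81 in siPRMT7 cells and 12.15, 12 and 12.82 in siLuc cells (2.01, SE 0.31).

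In the list of DNA methylation and retroelement silencing, which also holds enzymes that remove methyl groups and the RNA editor Adar, 18 of 29 genes fell and 7 rose (median -0.25). These are 62.1% and 24.1%, against 38.9% lower and 36.3% higher among all tested genes. Of all tested genes with a mean of 10 to 12, 49.2% were lower. Uhrf1, which brings the maintenance methyltransferase to new DNA, had 11.38, 11.34 and 11.30 in siPRMT7 cells and 12.45, 12.57 and 12.58 in siLuc cells (-1.19, SE 0.05). The maintenance enzyme Dnmt1 fell by 1.07, the remodeller Hells by 0.99, the polycomb methyltransferase Ezh2 by 0.98, the de novo enzyme Dnmt3a by 0.85 and the corepressor Trim28 by 0.77. Rising were the demethylating enzyme Tet2, by 1.16, and Fam208a, a subunit of the HUSH silencing complex with 12.9% of its exon bases shared, by 0.68. Uhrf1 and Dnmt1 are also genes of S phase, and their interactions were 1.32 and 0.56.

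Most melanocyte lineage genes were high in both groups, while single pigment genes moved. Kit and Oca2 were lower, with means of 7.35 and 7.54 over the 12 libraries. Mitf, the lineage factor, averaged 13.6 in siPRMT7 cells and 13.5 in siLuc cells (0.11, a call lost without siPRMT7 replicate 1 or siLuc replicate 1 or 2, at 0.09 to 0.11). Sox10 was not called (-0.05), but was called higher after quantile normalization (0.153). Of 19 genes 9 rose and 9 fell, against 36.3% higher and 38.9% lower among all tested genes. The median of the list was -0.05 and turned to 0.153 after quantile normalization. Pmel, of the melanosome fibrils, had 16.08, 16.11 and 16.05 in siPRMT7 cells and 16.97, 16.92 and 16.96 in siLuc cells (-0.87, SE 0.05). Mlana fell by 0.69, and the growth factor receptor gene Kit by 1.0. Oca2, a melanosomal transporter, rose by 1.33 and the melanocortin receptor Mc1r by 0.93.

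Surface, matrix and signalling genes moved in both directions, as did all tested genes, of which 36.3% were higher and 38.9% lower. Of 26 matrix genes 11 rose and 13 fell (median -0.24). Pcolce, an enhancer of procollagen cleavage, had 9.46, 9.39 and 9.40 in siPRMT7 cells and 11.70, 11.67 and 11.56 in siLuc cells (-2.23, SE 0.05), and Fbln1 fell by 1.24. Vcan (versican) rose by 1.86. Of 14 integrins 4 rose and 7 fell, with Itgb8, which activates TGF-β, at 2.21 and Itga9 at -0.95. In the lysosomal list 15 of 32 rose and 11 fell (median 0.07), with cathepsin Ctsh at 1.42 and Tfeb, the transcription factor of lysosomes, at -1.42. Among ABC transporters 7 of 23 rose and 12 fell, and Abcc2, an exporter of conjugates, had 8.83, 8.88 and 8.88 in siPRMT7 cells and 5.79, 5.67 and 5.63 in siLuc cells (8.97-fold). Of 20 genes of MAP kinase output 10 rose and 6 fell, with Fosl2 at 1.6, Jun at 1.36 and the feedback inhibitors Spry2 at 1.08 and Spry1 at -0.68. Of 13 YAP targets and partners 4 rose and 6 fell, with a median of -0.06 that turned to 0.033 after quantile normalization. Yap1 itself fell by 0.98, while the targets Ccn1 and Ccn2 rose by 0.77 and 0.83.

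Several of the largest rises lie outside these pathways or in neuronal genes. Of 18 neuronal genes 9 rose (50.0%) and 5 fell (27.8%), against 36.3% and 38.9% of all tested genes (list median 0.19). Stmn4, a tubulin-binding stathmin, rose by 3.12, Cacna1a, a calcium channel subunit, by 3.10 and Tubb3 by 0.85, while Rab3il1, an exchange factor for Rab3, fell by 2.16. Efcab1 (ENSMUSG00000068617.5, mm10 chromosome 16, 14906637 to 14926137, plus strand), an EF-hand protein gene of cilia, had the largest rise of any named gene, with 10.79, 10.72 and 10.83 in siPRMT7 cells and 7.09, 7.06 and 6.91 in siLuc cells (13.5-fold, 3.76, SE 0.08). Fyb, an adaptor of immune cells, had 10.84, 10.84 and 10.94 in siPRMT7 cells and 7.56, 7.54 and 7.47 in siLuc cells. The phosphatase gene Ppm1e rose by 2.97, Nlrp10 by 2.96, the ephrin receptor gene Epha7 by 2.94, the actin-binding Nebl by 2.91 and Tmem255a by 2.90. The galectin gene Lgals3 rose by 2.84, the orphan receptor gene Gpr158 by 2.74 and the cadherin gene Cdh13 by 2.72. With IFN-γ the rises were 3.46 for Efcab1, 3.06 for Fyb, 2.58 for Ppm1e, 3.41 for Nlrp10, 2.82 for Epha7 and 3.10 for Nebl. They were smaller with IFN-γ, with a called interaction, for Cdh13 (1.80 with IFN-γ), Tmem255a (1.96), Lgals3 (2.14) and Gpr158 (2.19), as also for Efcab1, Fyb and Ppm1e, and larger for Nlrp10.

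Several of the 25 largest falls lie in genes not described above. Pmp22, a myelin protein gene of the neural crest lineage, had 7.03, 6.94 and 6.76 in siPRMT7 cells and 9.23, 9.18 and 9.24 in siLuc cells (-2.31, SE 0.08). Sgk2, a kinase gene, fell by 2.30, the fatty acid carrier gene Fabp5 by 2.07, Fam131b by 2.06, the ketone body enzyme gene Bdh1 by 2.01 and the tumour suppressor gene Rassf2 by 1.98. The helicase gene Pif1 fell by 2.03, Rtkn2 by 1.99, and Sapcd2 by 1.95. The scaffold gene Slc9a3r2 fell by 1.91. Kbtbd11 fell by 2.01 with a wide spread among the siPRMT7 libraries, at 6.76, 6.49 and 5.72 against 8.23, 8.27 and 8.51 in siLuc cells (SE 0.28).

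Neighbouring genes moved together in 22 runs of at least 3. Besides the TRIM run these included Gbp7 (1.98), Gbp3 and Gbp2 on chromosome 3, and Samd9l with 3 predicted transcripts on chromosome 6. They included Masp1 (2.42) with the overlapping Rtp4 on chromosome 16. Parp12 stood in a run with Kdm7a (1.15), a histone demethylase gene, on chromosome 6. A run of 4 zinc finger genes on chromosome 4 (Zfp992, Zfp981, Zfp991 and Zfp988) rose by 1.20 to 1.43, and reads of such copies may be shared. Downward, the metallothionein genes Mt2 and Mt1, which bind zinc, fell by 1.48 and 1.23 on chromosome 8, Crip2, Crip1 and Tedc1 by 1.02, 1.25 and 1.03 on chromosome 12, and Scara5, Pbk and Esco2 by 1.99, 1.47 and 1.23 on chromosome 14. Many runs hold overlapping or antisense gene models, whose reads cannot be told apart where counting did not use the strand. Exon overlap with other genes also touches Irf5 (14.1% of exon bases), Psmb7 (11.8%), Kif4 (15.1%), Mt2 (73.5%), Bnip3 (22.3%) and Tmem255a (10.6%).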

How the data were processed

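RNA was measured by poly(A) RNA sequencing in 12 libraries of B16.F10 cells, in 4 groups of 3. Per gene of mm10 (GRCm38), the deposited table holds the authors' log2-scale values from a regularized log transformation (rlog). The submitters' processing notes name DESeq2 1.26.0, HOMER 4.11.1, STAR 2.7.1a and Trimmomatic 0.39, without saying which step each did. The rlog transformation draws low genes towards their mean, so it understates their differences. Counts were not used here, so no count model was run, and the number of libraries limits the precision. The sources used here do not say whether counting used the strand. The fold changes in the deposited table were not used.

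Testing used limma 3.58.1 (R 4.3.3) on genes whose mean over all libraries was 4 or more. The fit had 4 group means over all 12 libraries, moderated variances with a trend on the mean, and Benjamini-Hochberg adjustment over the 14407 genes, with calls at an adjusted p under 0.05. The same fit tested differences against 2-fold (limma's treat) and the interaction, the difference without IFN-γ minus that with it. The procedure was also run on simulated data with known changes. These had independent noise and few changed genes, so the run does not show how well the calls hold in the present data. Promoter windows came from RefSeq, GRCm38.p6, and were searched for motifs on both strands.

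The lists, their members and the comparison were chosen with earlier results of these data known. Named genes were Prmt7, the 25 largest rises and 25 largest falls past the test against 2-fold with a mean of at least 6 and groups that did not overlap, key members and the largest called members of each list, and runs of at least 3 neighbouring genes that moved at least 2-fold one way. Predicted and clone-named genes were left out of the largest changes. Markers of other cell types were also named. Some genes that meet this rule are not reported here. Alternatives were other filters, quantile normalization, median centring, the 6 libraries without IFN-γ alone, no variance trend, a replicate term, and leaving out each replicate.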

Additional observations from a re-analysis of the deposited data

Results flagged for a closer look

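Results are listed here where the knockdown difference without IFN-γ and that with IFN-γ themselves differed by more than 2-fold, by limma's test of the interaction against that size. This held for 143 of 14407 tested genes and for 55 of the 306 genes named in the text. Values are the difference without minus the difference with IFN-γ, on the log2 scale.

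For antiviral effectors and their regulators the interaction was positive. It was 3.14 for Usp18, 2.67 for Ifit3, 2.36 for Ifit3b, 1.79 for Ifit1 and 1.41 for Ifitm3. It was 2.51 for Oas2, 2.14 for Oasl2, 1.52 for Oas1a, 2.25 for Mx1, 2.08 for Mx2 and 2.22 for Isg15. Xaf1 had 2.48, Rtp4 2.23, Ddx60 2.20, Samd9l 1.54 and Rsad2 1.53. In the GTPases it was 2.95 for Gbp2, 2.77 for Gbp3, 2.28 for Gbp7, 2.14 for Gbp6, 2.69 for Irgm2, 2.35 for Irgm1 and 2.52 for Igtp. In the TRIM run it was 2.71 for Trim12c, 2.58 for Trim30a, 2.11 for Trim12a, 1.99 for Trim34a and 1.76 for Trim30d.

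Sensors, transcription factors and PARP genes followed. The interaction was 2.34 for Ifi203, 1.72 for Ddx58, 1.65 for Ifih1 and 1.41 for Eif2ak2. It was 1.55 for Irf7. It was 2.02 for Parp14, 1.65 for Parp9, 1.54 for Parp10, 1.40 for Parp12 and 1.24 for Parp11. Of the class I loading genes, Tapbp had 1.63 and Tap1 1.40.

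Positive interactions of genes that fell came from larger falls with IFN-γ. They were 1.64 for Mki67, 1.61 for Fancd2, 1.55 for E2f8, 1.45 for Bard1, 1.45 for Foxm1, 1.38 for Rrm2, 1.38 for Birc5, 1.37 for Pbk, 1.34 for Kif4, 1.32 for Uhrf1, 1.31 for Mcm5 and 1.25 for Bub1. Ccnd1 had 1.52, from a rise of 0.44 without and a fall of 1.08 with IFN-γ, and Tubb3 had 1.35, from 0.85 without and -0.50 with it. Cxcl1 was the only one of the 55 with a negative value, -1.86.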

How the results depend on the processing

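The counts over all tested genes stayed within 1.5 times those reported under the 13 alternatives that gave them. Leaving out each replicate in turn gave 4981 to 5138 genes higher and 5329 to 5578 lower in siPRMT7 cells, 341 to 369 and 230 to 254 past 2-fold, and 3825 to 4580 with an interaction, against 4415. With only a mean above 0 required, 22151 genes were tested, and 6543 were higher and 5955 lower. Median centring, which moved the median of all genes by 0.039, gave 5672 higher and 5168 lower. The 6 libraries alone allow no interaction.

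The labels number the replicates in every group. Same-numbered siPRMT7 and siLuc libraries deviated from their group means with correlations of -0.041, 0.075 and 0.022. These values show no strong shared deviation, but cannot tell whether same-numbered libraries were prepared together. Replicate 2 correlated best with its own number, and replicates 1 and 3 did not. With a replicate block 5269 genes were higher and 5627 lower, 373 and 270 past 2-fold, and 4573 had an interaction.

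Of the 306 named genes, 298 kept their direction and call under each alternative in which they were tested, and 11 have a mean under 6 and were not tested under that filter. The sign turned under quantile normalization for Asns (0.096), Sox10 (0.153) and Tmem173 (0.075), and under median centring for Asns (0.008) and Tmem173 (0.029). After quantile normalization Asns and Sox10 were also called higher (limma adjusted p = 0.0162 and 0.00154). Leaving out a replicate gave Tmem173 -0.048 to 0.034, and 0.011 without siLuc replicate 2. Of the counts and medians of the lists, 21 counts and 37 medians moved and 2 medians turned, 38 of these 60 under quantile normalization. There the median was 0.759 for the GTPases, 0.88 for the OAS list, 1.193 for the Schlafen list and 1.455 for the IFIT list. For the list of the immunoproteasome and its constitutive counterparts it was -0.057, and for the decay factors -0.016. With a mean of at least 6 it was 2.2 for the IFIT list and 1.464 for the GTPases, of which fewer were tested. The melanocyte list's median turned to 0.153 and that of the YAP and TEAD targets to 0.033 under quantile normalization. Mavs, Psmb9, Psmb10, Mitf and Cgas lost their call under at least 1 alternative. The cause was not tested. Low genes limit the comparison most, since rlog values shrink there.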

Other observations

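The protocadherin alpha genes, adhesion proteins that give neurons a surface identity, were higher in siPRMT7 cells. Of the 22 runs of neighbouring genes, 2 lie in this cluster, with 4 genes (Pcdha1 to Pcdha4) and 6 genes (Pcdha8, Pcdha9, Pcdha11, Pcdha12, Pcdhac1 and Pcdhac2). Their log2 differences ran from 1.16 for Pcdhac2 to 1.30 for Pcdha8. The 10 gene models end at the same position and share exons, so these are not separate measurements.

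Single markers of other cell types were expressed and differed between the groups. Vwf, an endothelial adhesion protein gene, rose by 1.85, and Erg, an endothelial transcription factor gene below the filter on the mean, had 4.38, 4.54 and 4.16 in siPRMT7 cells and 2.96, 2.95 and 3.02 in siLuc cells. The rest of the endothelial list differed less. Pecam1 had 3.08, 2.95 and 2.93 against 2.71, 2.80 and 2.94 in siLuc cells, and Tek 2.03, 2.15 and 2.14 against 1.80, 1.74 and 1.80. Cdh5 and Kdr lay at -2.22 to -2.2 in every library. The macrophage gene Cd68, also a lysosomal gene, rose by 1.20. The other leukocyte marker tested was not called, with 8.70, 8.48 and 8.65 in siPRMT7 cells and 8.56, 8.52 and 8.51 in siLuc cells. The fibroblast markers Pdgfra, Pdgfrb and Col1a1 fell by 0.42, 0.52 and 0.50. Col3a1, a fibroblast marker below the filter, went the other way. It had 2.46, 2.58 and 2.60 in siPRMT7 cells and 2.15, 2.04 and 2.15 in siLuc cells.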
